A study of Drosophila melanogaster with 4 samples.

Results

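The left arm of chromosome 3 of Drosophila melanogaster, called 3L, carried 2183 of the 14384 peaks of Suppressor of Hairless, Su(H), that the authors called in Kc167 cells. The members are all peaks listed on the assembled arm 3L, while 74 peaks on the separate heterochromatic scaffold 3LHet were not counted. Kc167 is an established, embryo-derived cell line of genotype se/e, described in the labels as female and of late embryonic stage. Chromatin was fixed with 1.8% formaldehyde for 15 minutes, and binding was measured by chromatin immunoprecipitation and sequencing (ChIP-seq) in 3 ChIP libraries with 1 input library of sheared chromatin. All libraries came from this line, for which the labels name no treatment, and the antibody was a rabbit polyclonal against residues 259 to 594 of Su(H). The data comprise 1 peak list for the whole series, with a start, an end and a score per peak and no value per library. No replicate error can therefore be attached to any peak, and the sequencing depth behind the list is unknown.

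In the Notch pathway Su(H) is the factor that binds DNA, as RBPJ does in mammals. When the Notch receptor is cleaved, its intracellular domain enters the nucleus, joins Su(H) and the co-activator Mastermind on DNA and activates target genes. Without Notch activity, Su(H) can instead bind the adaptor Hairless, which recruits the co-repressors Groucho and CtBP. Positions on 3L run from the telomere, at the low end, to the centromere, at the high end. They are given in FlyBase release 5, as in the deposited list, and the genes and sequences at these positions were not analysed here.

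Su(H) peaks on 3L were mostly narrow and of low score, with a small set of high and wide ones among them. The median width was 463 bp, with 25% of peaks at 300.0 bp or less and 25% at 888 bp or more. The median score was 17.07, and scores ran from 6.0 to 888.11. The peaks covered 1730 kb, or 7.05% of the arm up to the end of its last peak at 24528023.

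The deposited score takes the values of −log10 of a Poisson upper tail against a mean background of 195.9 fragments for 67.6% of the whole list, and such scores are said here to lie on the ladder. The count needed to reach a score, divided by that background, gives a fold over background. This scale was worked out from the scores themselves and is not given with the list, so every fold here rests on it. For a score off the ladder the background is not known. If such a peak was scored against a higher local background, it needs a smaller fold, and the fold given is an upper bound. Whether this holds was not tested. On that condition the median fold on 3L was at most 1.67. Of its peaks, 529 (24.2%) could reach 2-fold, against 21.3% over the whole list, and 142 (6.50%) could reach 4-fold, against 5.67%. Strong peaks, defined as the 10% of the whole list with the highest scores (106.8 or above), numbered 254 on 3L. This is 11.6% of its peaks (exact 95% interval 10.3% to 13.1%), against 10.0% over the whole list by construction. The share was 11.4% on X, 9.44% on 2L, 9.12% on 3R and 8.47% on 2R. Per Mb, 3L had 10.4 strong peaks, against 9.32 on 2L, 11.8 on 3R, 12.7 on X and 13.1 on 2R. Weak peaks, the 50% with the lowest scores (16.1 or below), numbered 1021, or 46.8%. Intervals cover counting error only. Peaks lie in groups and are not independent, so no difference between arms or stretches was tested.

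Along the arm, peaks were dense towards the telomere, sparse through the middle, dense again towards the centromere and sparse in the last stretch before it. In the 24 complete windows of 1 Mb, the count ran from 12 peaks (13 to 14 Mb) to 257 (1 to 2 Mb), with a median of 67.5. The first 4 windows held 147, 257, 167 and 234 peaks. The count then fell to 94 and 86 in the windows from 4 to 6 Mb and to 15 from 6 to 7 Mb. It stayed at 66 or below up to 17 Mb, reached 119 from 18 to 19 Mb and 167 from 19 to 20 Mb, and was 44 from 23 to 24 Mb.

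Strong peaks did not follow this course closely. From 1 to 2 Mb there were 15 of them among 257 peaks, and from 15 to 16 Mb there were 14 among 43. The window from 17 to 18 Mb had 19, the highest number of strong peaks per Mb on the arm, with 69 peaks in all. From 23 to 24 Mb there was no strong peak, and the highest score was 44.89. Across the 24 windows the numbers of strong and weak peaks had a Pearson's r of 0.36 and a Spearman's rho of 0.38. The number of peaks and their median score ran opposite to each other (Spearman's rho −0.75). These windows are neighbours on 1 chromosome and come from the same libraries, so the correlations are given as descriptions.

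**Figure D1:**
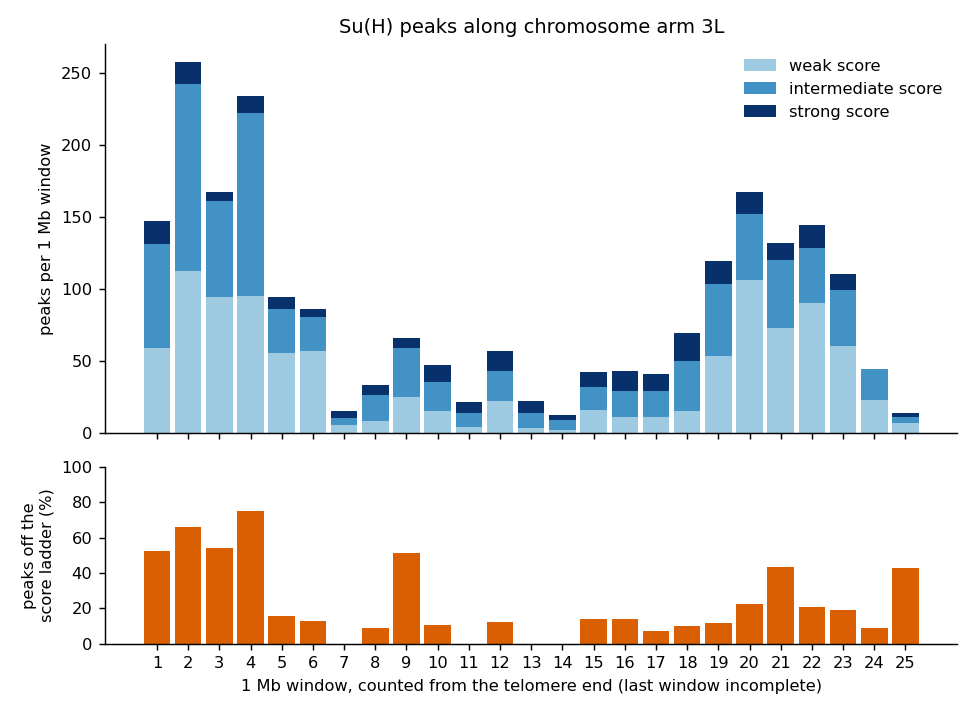
Upper panel, number of peaks on 3L in each 1 Mb window, counted from the telomere end, stacked by score class (weak, the lowest 50% of scores of the whole list; strong, the highest 10%; intermediate, the rest). Lower panel, percent of the peaks of each window whose score lies off the ladder. Windows 7 to 17 hold 12 to 66 peaks each, while windows 2 and 4 hold 257 and 234.

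Limits placed at 6, 17 and 23 Mb, chosen after the course was seen, divide the arm into 4 stretches. The first 6 Mb make up 24.5% of the arm and held 45.1% of its peaks, at 164 per Mb (exact 95% interval 154 to 175). From 6 to 17 Mb, 44.8% of the arm held 18.3% of its peaks, at 36.3 per Mb (32.8 to 40.01). From 17 to 23 Mb the density was 124 per Mb (115 to 133). The last 1.53 Mb had 38.0 per Mb (28.8 to 49.1).

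The sparse middle differed from its flanks by its weak and intermediate peaks more than by its strong ones. It had 9.0 strong peaks per Mb (7.31 to 11.0), against 10.5 (8.07 to 13.4) in the first 6 Mb and 14.8 (11.9 to 18.3) from 17 to 23 Mb. Intermediate peaks stood at 16.2 per Mb there, against 75 and 42.5. Weak peaks stood at 11.1 per Mb, against 78.7 and 66.2. Strong peaks were 24.8% of all peaks in the middle, 6.40% in the first 6 Mb and 12.01% from 17 to 23 Mb. The median score in the middle was 28.5, against 16.7 and 15.3. Because the limits were set on the counts, these differences describe the arm and are no test.

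The share of peaks off the ladder also changed along the arm, but did not follow the density throughout. It was 54.8% in the first 6 Mb, 16.0% from 6 to 17 Mb and 22.5% in the dense stretch from 17 to 23 Mb. In the first 4 Mb lay 514 of the 781 off-ladder peaks of 3L (65.8%). Of all its 2183 peaks, 147, 257, 167 and 234 lay in these 4 windows of 1 Mb. By 1 Mb window the off-ladder share was 52.4%, 66.1%, 54.5% and 75.2% in the first 4 windows, and 16.0% and 12.8% in the next 2. It was 0% in the 4 windows starting at 6, 10, 12 and 13 Mb. In windows of 100 kb, 97 of the 207 that held a peak had no off-ladder peak, while 40 had at least 50% and together held 72.3% of the off-ladder peaks. In the sparse middle, the window from 8600001 to 8700000 had the most off-ladder peaks, 21 of its 26. In the adjacent window, 8700001 to 8800000, 91.7% of 12 peaks were off the ladder. Over the arm as a whole 35.8% of peaks were off the ladder, against 32.4% of the whole list. On the other long arms the share was 54.0% on 2L, 28.3% on 2R, 24.0% on X and 23.1% on 3R. The part of the local background in the density of peaks was not tested.

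**Figure D2:**
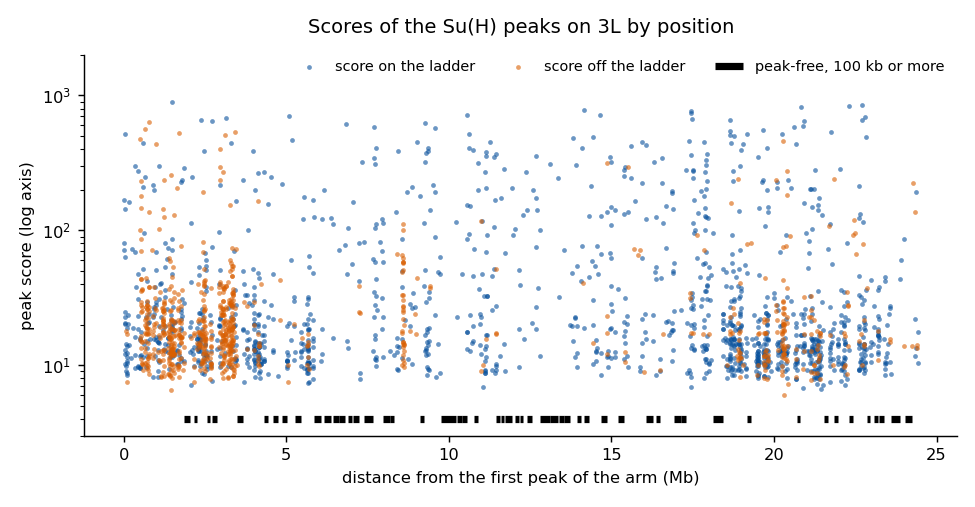
Score of each of the 2183 peaks on 3L (log axis) against its distance in Mb from the first peak of the arm, with scores off the ladder in orange. Black bars mark the 52 peak-free stretches of 100 kb or more, 29 of which lie between 6 and 17 Mb, where high scores continue while scores near 10 thin out.

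In windows of 100 kb, the median count on 3L was 5 peaks, and 39 of 246 windows (15.9%) held none. The middle stretch held 27 of these empty windows among its 110, and the first 6 Mb held 6 among 60. Windows with 20 peaks or more numbered 41, of which 24 lay in the first 6 Mb, 16 from 17 to 23 Mb and 1 in the middle. From 18500001 to 23800000, 53 windows in a row each held at least 1 peak, the longest such run of the arm. Peaks were thus concentrated, and the fullest 25 windows held 40.5% of the peaks of 3L. This was not particular to 3L, since the fullest 23 of 230 windows on 2L held 41.1% of its peaks. The share was 31.8% on X (22 of 224 windows), 30.8% on 3R (28 of 279) and 28.1% on 2R (21 of 212). Empty windows numbered 39 on 2L, 33 on X, 25 on 3R and 20 on 2R.

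The window from 3400001 to 3500000 was the fullest by both measures, with 56 peaks over 45.5 kb. Of these peaks 85.7% were off the ladder and 1 was strong. Next came the window from 1500001 to 1600000, with 54 peaks over 36.9 kb, which holds the highest-scoring peak of the arm. By covered length these were followed by 1300001 to 1400000 (35.7 kb), 2500001 to 2600000 (33.2 kb) and 600001 to 700000 (31.4 kb). By number of peaks they were followed by 2500001 to 2600000 with 50 peaks, 3300001 to 3400000 with 44 and 19000001 to 19100000 with 43. Of these 7 windows the first 6 by position had 75% to 93.2% of peaks off the ladder, and the one at 19 Mb had 23.3%.

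Peaks under 1 kb apart formed runs that can be read as single enriched regions. Merging them left 1028 regions on 3L, of which 583 were single peaks. The run with most peaks, 21 of them, reached from 3437345 to 3460995, and its highest score was 73.40. A run of 18 peaks lay from 2563810 to 2580133 with a highest score of 51.66, and one of 16 from 19064331 to 19085235 with 392.81. Runs of many peaks were therefore not always sites of high score. No test was made of whether a run marks 1 site or several.

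Long peak-free stretches took up much of 3L, as they did of 2L. The distance from the edge of a peak to the next was 100 kb or more in 52 places, which together made up 36.4% of the arm. Such places numbered 50 on 2L (37.4% of that arm), 44 on X (33.4%), 47 on 3R (27.1%) and 31 on 2R (22.0%). The longest on 3L reached from 9847522 to 10318126 (471 kb). It was flanked by a peak of score 63.38 on the telomere side and by a strong one of 115.34 on the other. No other long arm had a longer one, although X had one of 444 kb and 2L one of 394 kb.

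The next longest stretches were spread over the middle and the centromere side. They lay from 12907802 to 13220408 (313 kb), from 18227999 to 18539212 (311 kb), from 7492516 to 7774519 (282 kb) and from 23717902 to 23984381 (266 kb). Those from 13222147 to 13470104 (248 kb) and from 6257458 to 6488729 (231 kb) had strong peaks on both sides. The remaining 3 of the 10 longest were 11826514 to 12049314 (223 kb), 8089748 to 8308264 (219 kb) and 5969562 to 6186773 (217 kb). Of the 104 peak positions that flank the 52 stretches, counted once per stretch, 24 (23.1%) were strong, 46 intermediate and 34 weak. Of all peaks, 11.6% were strong on 3L and 24.8% from 6 to 17 Mb, where 29 of the 52 stretches lie.

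The most isolated peak of the arm was a strong one. It lay from 13220409 to 13222146, between 2 of the 10 longest stretches, with 248 kb to its nearest neighbour, a width of 1738 bp, a score of 309.32 and a 4.73-fold value over background. The next most isolated peaks, at 17231193 to 17231721 and 13659984 to 13661099, had scores of 25.73 and 71.69 and stood 182 kb and 177 kb from their neighbours. On 3L 148 peaks (6.78%) had no other peak within 10 kb, against 3.13% on 2R, 3.35% on 3R, 4.36% on X and 5.60% on 2L. In the middle stretch this held for 26 of the 99 strong peaks (26.3%), and for 77 of all 399 peaks (19.3%). In the first 6 Mb it held for 5 of 63 strong peaks (7.94%) and for 22 of all 985 (2.23%).

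Strong peaks had gaps of their own. The longest stretch of 3L without one ran from 22943009 to 24385242, or 1442 kb on the side of the centromere, and held 50 peaks with scores up to 86.84. The longest such stretch on another long arm was 1013633 bp long, on 2L. Beyond it, 3 strong peaks lay close to the end of the arm, at 24385243 to 24386058, 24432480 to 24433666 and 24460752 to 24463727. The first and second of these were off the ladder. The list ended with weak peaks, the last from 24527786 to 24528023 with a score of 10.39.

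**Figure D3:**
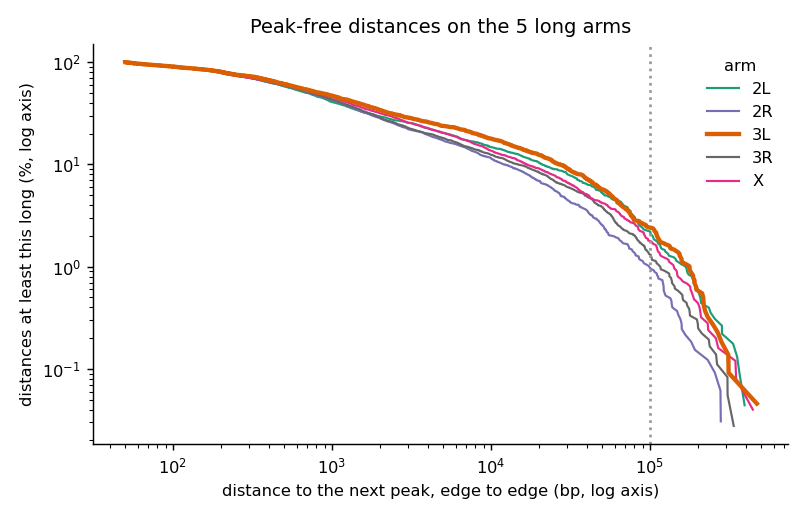
Percent of the distances between neighbouring peaks, edge to edge, that are at least as long as the value on the horizontal axis, for each of the 5 long arms (both axes log). The dotted line marks 100 kb; at that length the curve of 3L lies above those of the other arms, and it ends at 471 kb.

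The highest-scoring peak of 3L lay from 1586003 to 1588758, and was 2756 bp wide. Its score of 888.11 corresponds to 8.37-fold over background and ranked 8 in the whole list. Around it, 24 other peaks lay within 25 kb between midpoints, and none of them was strong. The closest began at 1583738 and ended 55 bp before it, with a score of 71.69.

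The next 3 peaks by score stood on the centromere side. The peak from 22827004 to 22834358 (score 849.58, 8.16-fold) was 7355 bp wide. A strong neighbour from 22815326 to 22818906 (score 662.70) lay within 25 kb, as did one of score 114.86. The peaks from 22399496 to 22402510 (839.57, 8.10-fold) and from 20940491 to 20944609 (824.16, 8.01-fold) had no strong peak within 25 kb. A further one from 22901647 to 22905381 had a score of 691.78.

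A dense group of high peaks lay in the window from 17 to 18 Mb. Its members at 17555529 to 17558172 (772.20, 7.72-fold) and 17566409 to 17572447 (736.93, 7.51-fold) were both among the 12 highest of the arm. Between them lay a strong peak from 17562112 to 17563896 (360.51), and beyond them another from 17583221 to 17584405 (668.66), only 1185 bp wide.

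The sparse middle held 3 of the 12 highest peaks. The peak from 14265155 to 14268531 (774.87, 7.73-fold) had 1 other peak within 25 kb, with a score of 18.92. The one from 14746170 to 14754278 (716.86, 7.40-fold) had its nearest neighbour 17358 bp away and a strong one of score 128.65 within 25 kb. The third, from 10673611 to 10675935 (717.73, 7.40-fold), had a strong neighbour of score 153.54. The number of other peaks within 25 kb of the 12 highest thus ran from 1 to 24, and that of strong ones from 0 to 3. The remaining 2 of the 12 were on the telomere side. That from 5176992 to 5182084 had a score of 705.59 (7.33-fold), and that from 3244637 to 3251929 one of 681.48 (7.19-fold). The 12 peaks had widths of 2325 to 8109 bp, and none of their scores was off the ladder.

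**Figure D4:**
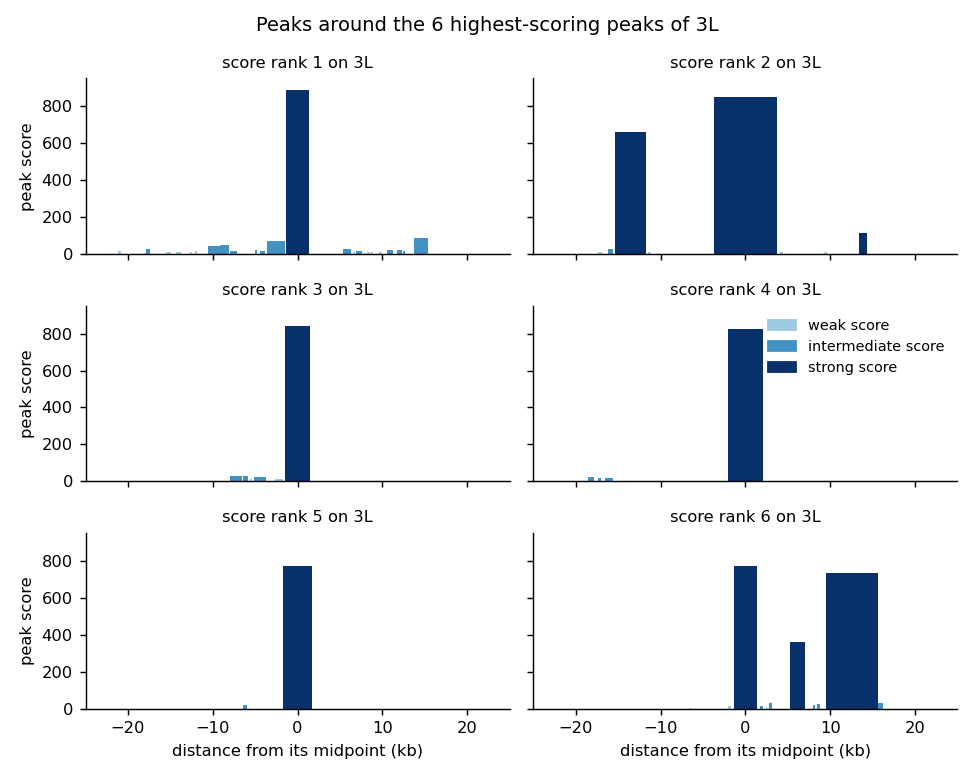
Peaks within 25 kb of each of the 6 highest-scoring peaks of 3L; each bar is 1 peak, drawn to its width and with its score as height, against the distance in kb from the midpoint of the central peak. The central scores run from 772.20 to 888.11; rank 1 has 24 neighbours and none of them strong, whereas ranks 2 and 6 have 2 strong neighbours each.

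The widest peaks of the arm were only in part the highest. The widest, 8304 bp from 119444 to 127747, lay near the telomere end, where the first peak of the arm began at 105005. Its score was 167.66 and its fold over background 3.55, and it ranked 183 by score among the peaks of 3L. A narrower peak from 130439 to 133108, close by, had a score of 519.78. Of the 10 widest, 3 were among the 12 highest, namely those at 14746170, 22827004 and 3244637.

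The other wide peaks covered a broad range of scores. They lay from 21000125 to 21008156 (8032 bp, score 592.44), from 2817521 to 2825115 (7595 bp, 646.61) and from 2487880 to 2494747 (6868 bp, 653.37). They were followed by 1097621 to 1104273 (6653 bp, 440.21), 9684493 to 9690801 (6309 bp, 576.87) and 4224793 to 4231018 (6226 bp, 165.92). The peaks at 1097621 and 4224793 were off the ladder. All 10 were strong.

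Peaks of 5 kb or more numbered 24 on 3L, which is 1.10% of its peaks, against 0.869% of the whole list. Of these 24 peaks 23 were strong, and the exception lay from 22356104 to 22361201. The widest peak of 3L was narrower than the widest of each other long arm, which measured 9095 bp on 3R, 10815 bp on 2R, 14124 bp on 2L and 22944 bp on X. Over the 2183 peaks of 3L, score and width had a Pearson's r of 0.74 and a Spearman's rho of 0.76. These points share their libraries and caller, and how the caller set the width was not tested.

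Within a score class, peak width on 3L was close to that of the other long arms for weak peaks and at the low end for strong ones. Weak peaks had a median width of 306 bp (exact 95% interval of the median 299 to 318), within the 298 to 320 bp of the other 4 arms. Intermediate peaks had 648.5 bp (617 to 686), against 628 to 708 bp. Strong peaks had 1947 bp (1747 to 2156), against 2032.5 bp on 2L, 2210.5 bp on X, 2330 bp on 2R (2097 to 2555) and 2388 bp on 3R (2212 to 2648). The intervals of 3L and 3R did not overlap, and those of 3L with 2L, X and 2R did. The median score of strong peaks was 237.4 on 3L and 274.9 on 3R. Within the highest 5% of scores, where the median score was 408 on 3L and 378 on 3R, the widths were 2670 bp (2455 to 2969) and 2993 bp (2767 to 3149), with overlapping intervals.

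On 3L itself, strong peaks were wider in the first 6 Mb than in the middle. The median was 2712 bp (2180 to 3077) in the first 6 Mb, 1734 bp (1455 to 1952) from 6 to 17 Mb and 1942 bp (1575 to 2386) from 17 to 23 Mb. The median scores of these strong peaks were 236.5, 225.1 and 241.1. Off the ladder were 38.1%, 4.04% and 10.1% of them. Among strong peaks on the ladder alone the medians of the first and middle stretch were again 2712 bp (1743 to 3309, 39 peaks) and 1734 bp (1455 to 1952, 95 peaks), and their intervals then overlapped.

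**Figure D5:**
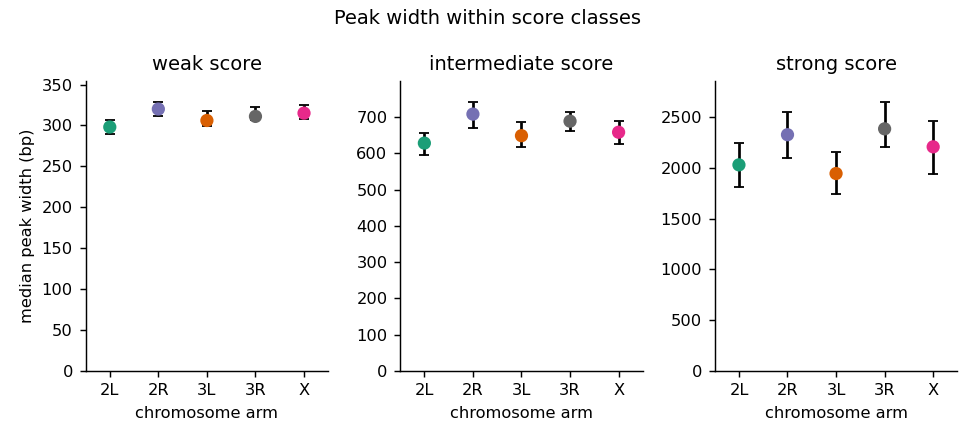
Median peak width in bp on each of the 5 long arms, in separate panels for weak, intermediate and strong scores; error bars are exact 95% intervals of the median, which cover counting error over peaks only. Strong peaks on 3L have a median of 1947 bp, below the 2388 bp of 3R.

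In the list as deposited, 3L had the longest median distance between neighbouring peaks of the 5 long arms. Between midpoints it was 1820.5 bp (exact 95% interval of the median 1720 to 1941.5), against 1748 bp on X, 1634.5 bp on 3R, 1626.25 bp on 2R and 1569.5 bp on 2L. The interval of 3L overlapped that of X (1641 to 1835.5) and lay above those of 2L, 2R and 3R. With only the upper 50% of scores the order changed, and the 3595 bp of 3L lay below the 3765 bp of 3R and the 3935 bp of X. The longer distances differed more between arms. Of the midpoint distances on 3L, 10% were 28292 bp or more, against 13241 bp on 2R and 21367 bp on 2L. Strong peaks on 3L were a median of 52494 bp apart, between the 33536 bp of X and the 56466 bp of 2L.

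A peak on 3L had a neighbour with an edge under 1 kb away in 73.3% of cases (exact 95% interval 71.4% to 75.1%). On the other long arms the share ran from 75.8% on X to 79.4% on 2R. Among strong peaks, 63.0% on 3L had such a neighbour, against 64.5% on 2L, 68.3% on X, 76.0% on 3R and 76.4% on 2R. Windows of 100 kb with a strong peak but no weak one numbered 32 of 246 on 3L and 27 of 230 on 2L. They numbered 16 of 279 on 3R, 14 of 224 on X and 12 of 212 on 2R.

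Long unbroken runs of sparse 1 Mb windows occurred on 3L and 2L. The median of all complete 1 Mb windows of the 5 long arms was 116.5 peaks. On 3L 14 windows in a row, from 4 to 18 Mb, lay below it. The longest such run was 10 windows on 2L, 5 on X, 3 on 3R and 2 on 2R. The fullest complete window of 3L had 21.4 times as many peaks as the emptiest, against 19.8 on 2L and 4.67 to 5.02 on 2R, 3R and X. By density of all peaks as deposited, 3L was the lowest, at 89.0 per Mb (exact 95% interval 85.3 to 92.8). The density was 98.7 per Mb on 2L, 111.8 on X, 129.3 on 3R and 154.1 on 2R. The share of 3L in peak-free stretches of 100 kb or more was 36.4%. It was 37.4% on 2L, 33.4% on X, 27.1% on 3R and 22.0% on 2R. On this last measure 2L lay above 3L and was the arm closest to it.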

How the data were processed

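The authors deposited 1 peak list for the series. Its coordinates are of FlyBase release 5, per the file headers, and its source column names MACS. BDGP5, BWA, MACS2 and CASAVA (1.7.0.3 and 1.7.0.2) are named in the submitters' processing notes, without their roles. The authors deposited 1 score per peak. What scale it has, which threshold was applied and which libraries entered is not given in the sources used here. In the whole list no peak was narrower than 201 bp and no neighbours were closer than 50 bp.

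The background of the ladder was the Poisson mean that placed most of 92 frequent scores (each under 40 and held by 25 or more peaks) within 0.015 of −log10 of an upper tail. It was then refined on all peaks, and a peak was on the ladder within 0.0075. In 3 simulated sets the fit erred by at most 0.002 and at least 99.92% of ladder scores were recovered, while 4.78% to 6.21% of the other scores lay on the ladder by chance. The sets were drawn from this same Poisson tail, with higher backgrounds for the other scores. They check the fit, and cannot show whether the deposited scores arose this way.

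Peaks were assigned to windows by midpoint, and covered length was cut at window limits. The length of an arm was the end of its last peak. Intervals are exact 95% intervals (Poisson for densities, binomial for shares and medians). Named were the 12 highest and 10 widest peaks, the 10 longest peak-free stretches, the 5 fullest windows by each measure, and the first and last peak. Other named peaks (neighbours, isolated peaks, the last strong peaks, the 5 kb exception) and the runs of peaks were chosen after their values were seen. The members and lists were chosen with earlier results of these data known. The alternatives were the upper 50% of scores, merged peaks, shifted windows and other limits. No genome of release 5 was used. The gene table at hand is of release 6 and was not used. The software was matplotlib 3.10.9, pandas 2.3.3, SciPy 1.17.1, NumPy 2.4.6 and Python 3.11.15.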

Additional observations from a re-analysis of the deposited data

Results flagged for a closer look

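The heterochromatic scaffold 3LHet, which is counted apart from the arm, held 74 peaks and is listed because it carries signal in sequence outside the main measurement. Their median score was 27.57 and the highest was 226.71. Strong were 7 of the 74, where 10.0% of the whole list is strong by construction. Of the 74 peaks, 50% were off the ladder, against 32.4% of the whole list. Folds taken from those scores are upper bounds only if their background was a higher local one.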

How the results depend on the processing

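With the upper 50% of scores, 3L had 47.4 peaks per Mb, a median spacing of 3595 bp, a median width of 812 bp and a median of 37.0 peaks per 1 Mb window. With peaks under 1 kb apart merged, these values were 41.9 per Mb, 8156 bp, 1037 bp and 37.5. Both settings remove peaks by construction. The order of the arms changed in part. With merging, 2L (40.4 per Mb) was poorer in peaks than 3L. As deposited, the median width was 463 bp on 3L (446 to 485) and 461 bp on 2R (448 to 476), with overlapping intervals. It was 455 bp on 2L, 454.5 bp on X and 436 bp on 3R. With merging, 3L lay below 2R, X and 2L by median width. With the upper 50% of scores its 812 bp lay below X (823 bp), 2R (832 bp) and 3R (835 bp). With the upper 50% of scores, 3R (60 stretches) and 2L (55) had more peak-free stretches of 100 kb or more than 3L (54). With a limit of 50 kb in place of 100 kb, 3L had 124 stretches. The number of empty 100 kb windows stayed within 38 to 51 under both settings and windows shifted by 50 kb. Windows of 1 Mb shifted by 500 kb had a median of 65.0 peaks. The share of strong peaks on 3L was 1.16 times that of the whole list with the highest 10% of scores, 1.10 with the highest 5% and 1.14 with the highest 25%. The comparison of strong peaks on the ladder alone was chosen after seeing the data. No paired analysis was possible because no library has values of its own in the list, so no replicate could be left out either. The unknown depth limits what the list can show for sites of low enrichment.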
